A study of Bos taurus with 16 samples.

Results

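The data hold 10 hypoxia response genes, chosen by name: HIF1A, EPAS1, ANKRD37, PFKFB3, PFKFB4, VEGFA, CA9, EGLN3, BNIP3 and ADM. Each name occurred once in each deposited table, so all 10 were found among the 38959 genes of the first blastocyst table, the 37429 of the second and the 28303 of the bovine embryonic stem cell (bESC) table. The study asked what LY2955303 (LY), an inhibitor of the retinoic acid receptor RARγ, does to bovine embryos and bESCs. Bovine oocytes from slaughterhouse ovaries were matured and fertilized in vitro, and single blastocysts of day 8 were sequenced 1 embryo per library. In the first experiment, 3 blastocysts received 10 μM LY from the 2-cell stage (LY10) and 3 received its solvent (DMSO). In the second, LY was given from the 2-cell stage (cell2_LY) or from the 16-cell stage (cell16_LY), beside solvent controls (LY_DMSO), with 2 blastocysts in each group. The labels do not state the dose of LY in the second experiment. According to the methods, the embryo medium of treated and control embryos alike contained LIF, FGF2 and IGF1. The bESCs grew on mouse feeder cells in TiFX medium without (bESC_tifx) or with LY (bESC_LY, 10 μM for 3 days), with 2 libraries in each group. Among other components, TiFX contains LIF, forskolin, IWR-1, SU5402 and inhibitors of MEK1/2, DOT1L and GSK3. All samples were labelled wild type and batch 1, so the labels tell no batches apart. The oxygen level of the cultures was not given in the sources used here.

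Cells sense oxygen through the hypoxia-inducible factors (HIFs). The alpha subunits, HIF1A and EPAS1, are made all the time, and prolyl hydroxylases of the EGLN family use oxygen to mark them for destruction through VHL. When oxygen is short, the alpha subunits persist, pair with ARNT and switch on genes for glycolysis, pH control, mitochondrial turnover and vessel growth. Their activity is therefore set largely at the protein, and an mRNA level of HIF1A does not measure it. The early embryo is known to develop in an oviduct and uterus with little oxygen, and the blastocyst for a high use of glucose.

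The libraries held 7905768 to 15137567 reads on genes in the first blastocyst table, 11336091 to 17343140 in the second and 29055323 to 31230432 in the bESC table. Reads per gene were recovered from the deposited values and scaled to the library size, and they are given below as normalized counts. DMSO replicate 3 stood apart, since its rank correlation over genes was 0.903 to 0.927 with the LY10 libraries and 0.844 to 0.883 with the other DMSO libraries. LY_DMSO replicate 1 likewise correlated up to 0.962 with a treated library and 0.935 with its own group, and cell2_LY replicate 2 at 0.944 and 0.952 with the cell16_LY libraries and 0.935 with its own group. The blastocysts carried trophectoderm and epiblast markers at summed levels of at least 2662 and 617 FPKM (fragments per length of gene and size of library). In the bESCs the epiblast markers reached 1874 to 2012 FPKM, against 98.6 to 296 FPKM for trophectoderm markers, of which PAG2 and IFNT were at 0. In whole blastocysts, fewer cells of a type and less RNA per cell cannot be told apart.

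In levels per gene length, BNIP3 ranked first and HIF1A second in all 7 groups. BNIP3 encodes a mitochondrial receptor for autophagy, and HIF1A the alpha subunit of HIF1. The mean level of BNIP3 was 25.1 FPKM in DMSO, 35.9 in LY10, 34.2 in LY_DMSO, 20.0 in cell2_LY and 72.6 in cell16_LY. HIF1A followed with 20.8, 19.1, 17.4, 10.3 and 23.2 FPKM in the same groups. In DMSO the replicate ranges of these 2 genes overlapped, so that their order was not set there, and in the other 6 groups they did not overlap. VEGFA, PFKFB4, ADM, EGLN3 and CA9 lay between 1.23 and 8.31 FPKM in the mean of every blastocyst group. Their ranges mostly overlapped with those of the next gene in order. EPAS1, which encodes the HIF2 alpha subunit, did not exceed a mean of 0.524 FPKM in any blastocyst group, against at least 10.3 FPKM for HIF1A.

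In the bESC table BNIP3 had a mean of 478 FPKM in bESC_tifx and 451 in bESC_LY, and HIF1A had 46.3 and 47.0. EGLN3, the prolyl hydroxylase that is itself a HIF target, came next with 28.0 and 25.9 FPKM, while EPAS1 was the lowest, with 0.143 and 0.112 FPKM. The tables were normalized separately and use different gene models, so levels were not tested between blastocysts and bESCs. The difference in gene models is widest for PFKFB3. Its length is 56318 bases in the blastocyst tables (chromosome 13, 17098741 to 17372190, minus strand) and 4827 bases in the bESC table, which lowers its FPKM in blastocysts. The blastocyst model of PFKFB3 also overlaps PRKCQ on the other strand, which had 2 to 87 reads, and the strand setting of the count was not given in the sources used here. ANKRD37 lies on chromosome 27 at 15651386 to 15654052, plus strand, and overlaps no other gene. These positions are those of the first blastocyst table and are on ARS-UCD2.0, on which all 10 genes of that table match. The bESC table, with its other gene models, places ANKRD37 at 15651437 to 15654048.

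**Figure D1:**
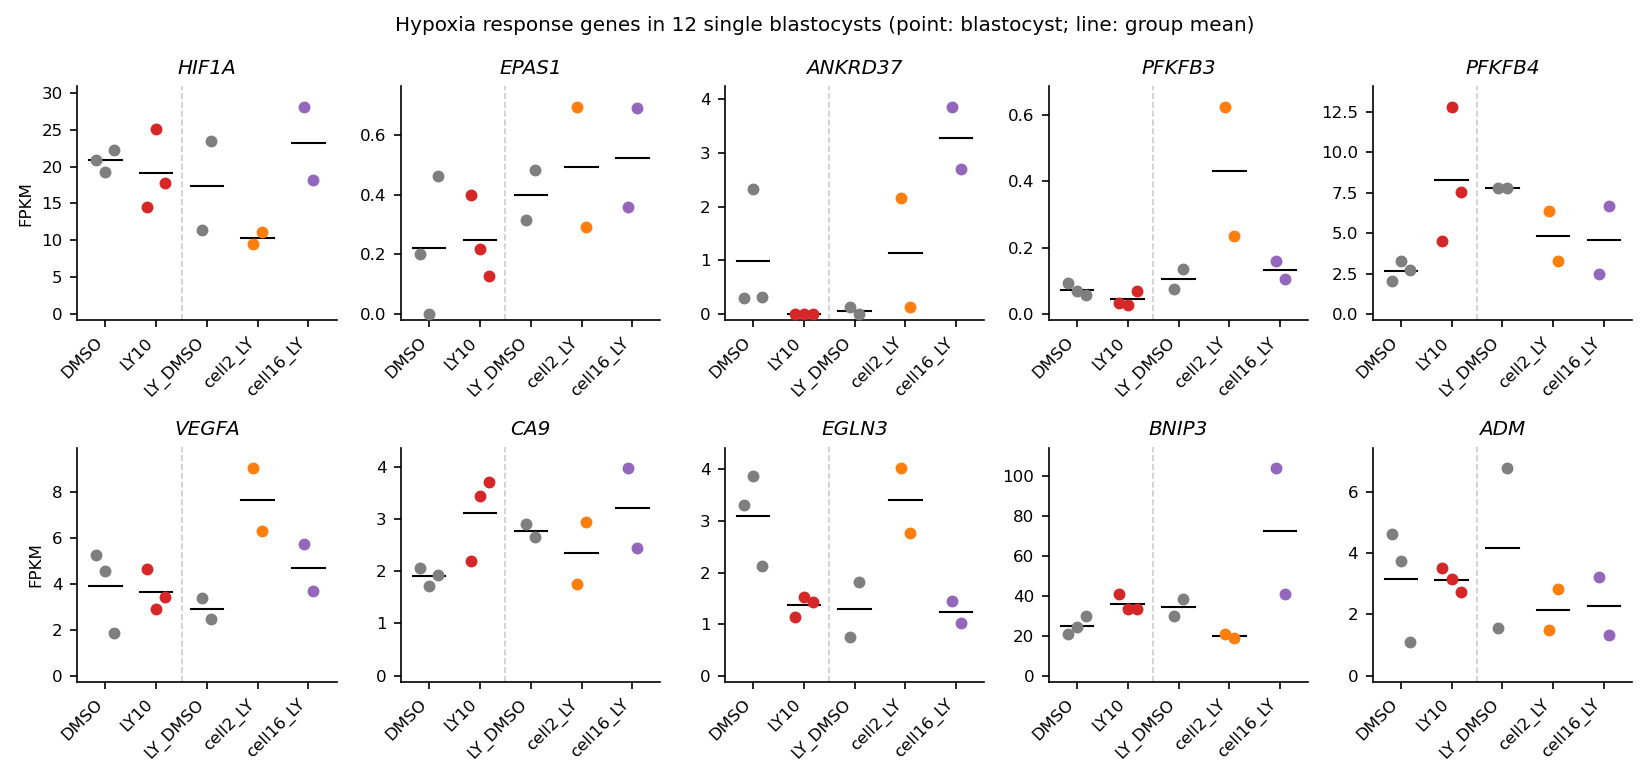
FPKM of the 10 hypoxia response genes in each of the 12 blastocysts, with 1 panel per gene and the 5 groups on the horizontal axis, points for blastocysts and lines for group means. ANKRD37 sits at 0 in all 3 LY10 blastocysts and above the control blastocysts in both cell16_LY blastocysts.

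In the first experiment, which asks what LY does when present from the 2-cell stage, PFKFB4 was higher and EGLN3 lower in LY10 than in DMSO. ANKRD37 had no read in any LY10 blastocyst. Of the 10 genes, 8 had a mean of at least 10 normalized counts and were tested, 1 passed the study's threshold upwards and 1 downwards. That threshold is an unadjusted p under 0.05 with a fold change above 2 in either direction, and of all 14249 genes tested 14.7% passed it, 6.2% upwards and 8.51% downwards. The groups of 4 of the 8 genes did not overlap, which was the case for 28.1% of all genes. After Benjamini-Hochberg adjustment over all genes, 0 of the 8 genes were below 0.05, with 2 genes of the whole table below it (0.014%), against 22.9% of genes at an unadjusted p under 0.05.

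PFKFB4 makes the activator of the glycolytic enzyme phosphofructokinase, as does PFKFB3. PFKFB4 had 75.3, 120 and 98.5 normalized counts in the DMSO blastocysts and 165, 467 and 276 in the LY10 blastocysts. All 3 treated blastocysts were above all 3 controls, and replicate 2 was the highest in both groups. The log2 fold change was 1.51 ± 0.42 (SE, n = 3 per group), with an adjusted p of 0.0959 from limma. PFKFB3 went from 56.7, 41.8 and 33.9 normalized counts to 20.5, 17.4 and 42.7. Its groups overlapped at LY10 replicate 3, and the log2 fold change was -0.77 ± 0.53 with a limma adjusted p of 0.412.

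EGLN3 had 71.4, 83.6 and 45.9 normalized counts in DMSO and 24.5, 32.8 and 31.1 in LY10. Every LY10 blastocyst was below every control, DMSO replicate 3 being the nearest to them. The log2 fold change was -1.12 ± 0.44 with a limma adjusted p of 0.181. The call of EGLN3 was lost without DMSO replicate 1 (-1.06), DMSO replicate 2 (-0.95), LY10 replicate 1 (-1.002), LY10 replicate 2 (-1.21) or LY10 replicate 3 (-1.17), and under log2(FPKM + 1) (-0.77) or quantile normalization (-0.82).

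ANKRD37, an ankyrin repeat protein whose gene is a direct HIF1 target in other cells, had 4, 24 and 3 reads in the DMSO blastocysts and 0, 0 and 0 in LY10. DMSO replicate 2 held most of the reads, and the other controls were near the limit of 3 reads that a count of 0 allows. With 3 reads taken as the limit over the LY10 group and the DMSO reads taken as exact, LY10 was at least 9.66-fold lower. Without DMSO replicate 2 it was at least 3.18-fold lower on the same terms, which leave out the counting error of the DMSO reads. Without LY10 replicate 2 the limit was 4.85-fold. ANKRD37 was below the filter on low values and was not tested there. Without that filter it passed the threshold, at a fitted log2 fold change of -2.92 that depends on the pseudocount. EPAS1, with 8, 0 and 13 reads in DMSO and 9, 10 and 3 in LY10, was also below the filter, and its groups overlapped.

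BNIP3 and CA9 were higher in all 3 LY10 blastocysts than in all 3 controls but did not pass the threshold. BNIP3 had 185, 216 and 261 normalized counts in DMSO and 359, 295 and 293 in LY10, a log2 fold change of 0.52 ± 0.27 (limma adjusted p 0.276). CA9, a carbonic anhydrase of the cell surface that controls pH, had 73.0, 60.7 and 67.8 in DMSO and 77.7, 121 and 131 in LY10, a log2 fold change of 0.67 ± 0.36 (limma adjusted p 0.294). HIF1A had 925, 854 and 985 normalized counts in DMSO and 644, 1107 and 785 in LY10, with LY10 replicate 2 above all controls and the other two below them. VEGFA, the vascular growth factor, and ADM, the vasodilator peptide adrenomedullin, overlapped between the groups, with log2 fold changes of 0.01 and 0.21. The lowest value of both genes was in DMSO replicate 3, at 55.8 and 18.6 normalized counts.

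Among marker lists, fibroblast markers moved with the treatment in the first experiment. Their summed level was 24.4 to 91.1 FPKM in DMSO, highest in replicate 3, and 6.10 to 11.7 FPKM in LY10, and 2 of the 5 tested were lower past the threshold. The median log2 fold change of these markers was -1.68. Cumulus cell markers summed to 23.6 to 61.7 FPKM in DMSO and 10.7 to 28.3 in LY10, with a median of -1.04, and 1 of the 6 tested, HSD3B1, was lower past the threshold (-2.27). Of 6 hypoblast markers tested only PDGFRA (3.74) passed it, upwards, and of 7 epiblast markers only POU5F1 (1.23), also upwards. The hypoblast estimates were above 0 for 3 markers and below for 3, with a median of 0.08. Those of the epiblast were above 0 for 4 and below for 3, with a median of 0.35. The part of these markers in the values of PFKFB4, EGLN3 and ANKRD37 was not tested.

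**Figure D2:**
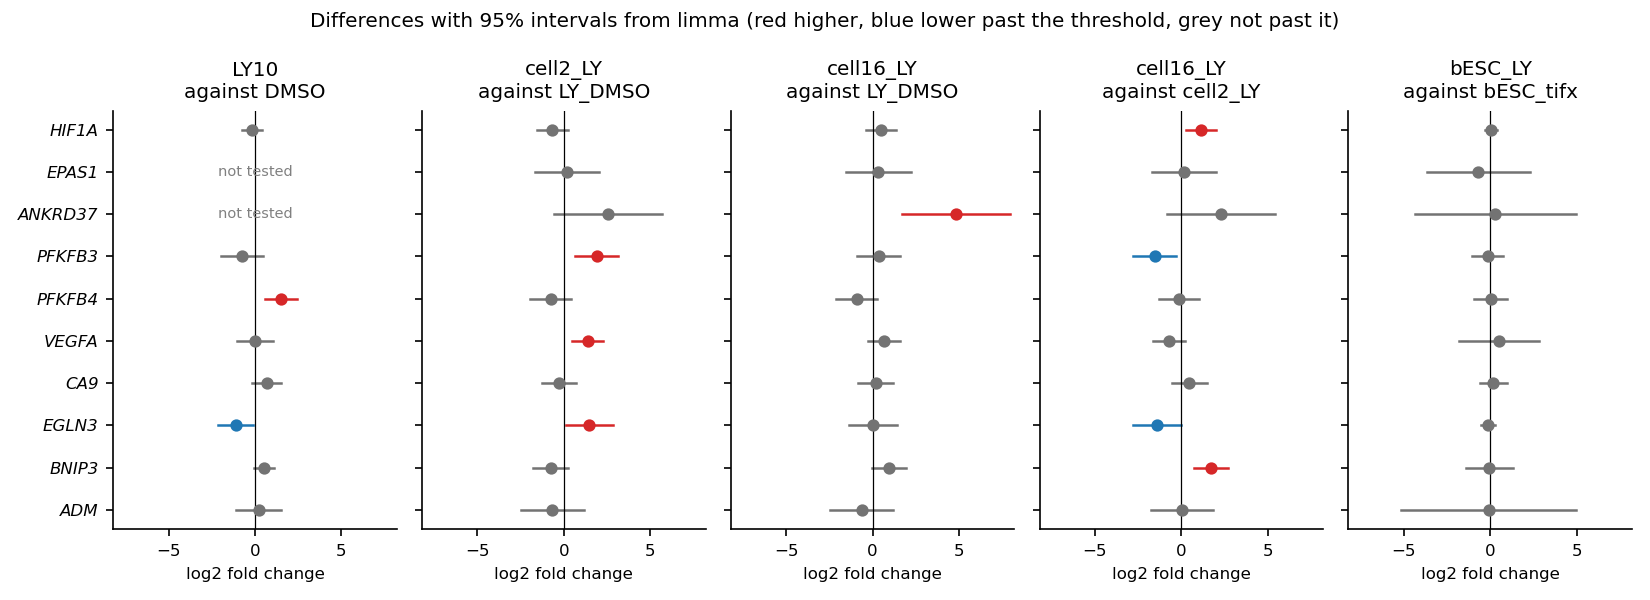
Log2 fold change (horizontal axis) of the 10 genes in the 5 comparisons, with points for estimates and bars for 95% intervals from limma. Red marks genes that passed the study's threshold upwards, blue downwards, and EPAS1 and ANKRD37 were not tested in the first experiment.

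In the second experiment, LY from the 2-cell stage went with higher VEGFA, PFKFB3 and EGLN3. All 10 genes were tested in the second table, of which 3 passed the threshold upwards and 0 downwards, while 17% of the 14529 genes passed it in either direction, 8.71% upwards and 8.34% downwards. The groups of 7 of the 10 genes did not overlap, beside 53.7% of all genes, and 0 of the 10 held after adjustment, beside 2 of all genes (0.0138%) and 24.6% of genes at an unadjusted p under 0.05.

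VEGFA had 145 and 105 normalized counts in LY_DMSO and 388 and 270 in cell2_LY. Both treated blastocysts were above both controls. The log2 fold change was 1.38 ± 0.40 (SE, n = 2 per group) with a limma adjusted p of 0.101, and it lay between 1.12 and 1.64 when any library was left out. PFKFB3 had 65.8 and 116 in LY_DMSO and 536 and 202 in cell2_LY, a log2 fold change of 1.90 ± 0.55 (limma adjusted p 0.101). Replicate 1 of cell2_LY was the higher of the treated pair, and without it the estimate was 1.198 and no longer passed the threshold, while without replicate 2 it was 2.60.

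EGLN3 had 23.2 and 56.4 normalized counts in LY_DMSO and 124 and 85.8 in cell2_LY, again without overlap. Its log2 fold change was 1.49 ± 0.61 (limma adjusted p 0.178). The call was lost without LY_DMSO replicate 1 (0.86), cell2_LY replicate 1 (1.22) or cell2_LY replicate 2 (1.75), and without either cell16_LY library, while without LY_DMSO replicate 2 it was 2.11. It was also lost under log2(FPKM + 1) (0.97), quantile normalization (1.28), sample weights, a filter at a mean of 50 and a fit of these 2 groups alone. HIF1A, PFKFB4 and BNIP3 were lower in both cell2_LY blastocysts than in both controls and did not pass the threshold. Their log2 fold changes were -0.66 ± 0.39, -0.77 ± 0.51 and -0.76 ± 0.43. Without LY_DMSO replicate 1, HIF1A passed the threshold at -1.18, while without LY_DMSO replicate 2 it was -0.14. CA9, ADM and EPAS1 overlapped between the groups.

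ANKRD37 had 2 and 0 reads in LY_DMSO and 29 and 2 in cell2_LY. The controls were at or below the limit of 3 reads, and only replicate 1 of cell2_LY stood above it. The summed reads per library size were 17.4 times those of LY_DMSO, with a counting interval of 4.42 to 150, which covers counting error only. ANKRD37 met the filter on low values only through the LY groups, so its fits in this experiment are a description. The difference did not pass the threshold (log2 fold change 2.54 ± 1.36, limma adjusted p 0.282). It passed without cell2_LY replicate 2, at 4.27, while without replicate 1 the estimate was 0.82 and the ratio of reads 2.13 (counting interval 0.155 to 29.4). Without LY_DMSO replicate 1, whose 2 reads are all those of the controls, cell2_LY was at least 5.80-fold higher, with its own reads taken as exact. Without LY_DMSO replicate 2 the ratio was 8.67.

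In cell16_LY against LY_DMSO, which asks what LY does from the 16-cell stage, ANKRD37 had its highest levels of the blastocysts. It had 61 and 34 reads in the cell16_LY blastocysts, or 56.7 and 39.7 normalized counts, against 1.85 and 0 in LY_DMSO. Both treated blastocysts were above every control and cell2_LY blastocyst of that experiment. The ratio of summed reads was 53.1, with a counting interval of 14.3 to 445, and the log2 fold change was 4.84 ± 1.36 with a limma adjusted p of 0.525. ANKRD37 met the filter on low values only through the LY groups, so these values are a description and its place past the threshold supports nothing. Without cell16_LY replicate 1 the call was lost at 4.59, and without LY_DMSO replicate 1 or 2 the estimate was 5.60 or 4.09. Without LY_DMSO replicate 1 the reads were at least 17.7-fold higher in cell16_LY, with the cell16_LY reads taken as exact. Without LY_DMSO replicate 2 their ratio was 26.5.

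Apart from ANKRD37, the other 9 genes did not pass the threshold in cell16_LY against LY_DMSO, where 5.22% of all genes passed it, 3.25% upwards and 1.97% downwards. The groups of 4 of the 10 genes did not overlap, beside 42.9% of all genes. ANKRD37 is again among them, under the same limit. No gene of the 10 and 0 of the 14529 genes held after adjustment with limma, while 7.62% had an unadjusted p under 0.05. BNIP3 had 375 and 485 normalized counts in LY_DMSO and 1308 and 517 in cell16_LY. It was higher in both treated blastocysts, far more so in replicate 1, with a log2 fold change of 0.94 ± 0.43 (limma adjusted p 0.672) that passed the threshold without cell16_LY replicate 2, at 1.61, and was 0.28 without replicate 1. PFKFB4 was lower in both cell16_LY blastocysts, at 130 and 349 against 408 and 405 normalized counts, with a log2 fold change of -0.93 ± 0.51. Without cell16_LY replicate 2, PFKFB4 passed the threshold at -1.63, and without replicate 1 it was -0.22. EGLN3 had 44.6 and 31.5 normalized counts in cell16_LY, within the range of the controls, and VEGFA had 245 and 159, above both controls but not past the threshold (0.67 ± 0.40).

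The groups cell16_LY and cell2_LY share the LY_DMSO libraries and were also compared with each other directly. LY began earlier in cell2_LY and so was present for longer. In this contrast the stage at which LY began and the length of exposure therefore cannot be told apart. HIF1A and BNIP3 were higher, and PFKFB3 and EGLN3 lower, when LY began at the 16-cell stage. These 4 of 10 genes passed the threshold, which 11.3% of all genes passed, 5.58% upwards and 5.77% downwards. The groups of 6 of the 10 did not overlap, beside 54.5% of all genes. ANKRD37 is among the 6 and met the filter on low values only through these LY groups. Neither the 10 genes nor any of the 14529 held after adjustment with limma, while 17.9% had an unadjusted p under 0.05.

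HIF1A had 1778 and 1151 normalized counts in cell16_LY and 604 and 705 in cell2_LY, and 721 and 1480 in LY_DMSO, which overlapped with cell16_LY. Its log2 fold change was 1.13 ± 0.39 (limma adjusted p 0.210), and the call was lost without cell16_LY replicate 1 (0.82) or cell2_LY replicate 1 (1.02), and with reads on genes as library size (0.92). BNIP3, with 1308 and 517 against 265 and 238, had a log2 fold change of 1.71 ± 0.43 (limma adjusted p 0.193). It passed the threshold whichever library was left out, from 1.04 without cell16_LY replicate 1 to 2.38 without cell16_LY replicate 2.

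PFKFB3 had 137 and 92.1 normalized counts in cell16_LY against 536 and 202 in cell2_LY, a log2 fold change of -1.54 ± 0.55 (limma adjusted p 0.218). The call was lost without cell2_LY replicate 1 (-0.84) or cell16_LY replicate 2 (-1.26), and the estimate was -2.25 without cell2_LY replicate 2. EGLN3 had 44.6 and 31.5 against 124 and 85.8, a log2 fold change of -1.44 ± 0.61 (limma adjusted p 0.266). Its call was lost without any 1 of the 4 libraries of these 2 groups, with estimates of -1.70 to -1.17, and under no filter, a filter at a mean of 50, log2(FPKM + 1) (-0.97) or quantile normalization (-1.23). ANKRD37, with 95 reads in cell16_LY against 31 in cell2_LY, had a ratio of 3.06 per library size (counting interval 2.02 to 4.75) and did not pass the threshold (2.30 ± 1.36), except without cell2_LY replicate 1, at 4.03, where the ratio was 24.9. Without cell2_LY replicate 2 the estimate was 0.57 and the ratio 1.55.

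Trophectoderm and epiblast markers differed between these groups as well. The summed epiblast level was 1175 to 1205 FPKM in LY_DMSO, 617 to 809 in cell2_LY and 723 to 864 in cell16_LY. The summed trophectoderm level was 3979 to 4790, 5022 to 7527 and 5071 to 5102 FPKM in the same order. Of the 9 trophectoderm markers tested, CDX2 and GATA2 were higher past the threshold in cell2_LY than in LY_DMSO, with log2 fold changes of 2.78 and 1.99, and lower in cell16_LY than in cell2_LY, with -1.84 and -1.94. Of 7 epiblast markers tested, ZFP42 (-1.35) and DPPA3 (-1.59) were lower past the threshold in cell2_LY than in LY_DMSO. UTF1 (-2.02) was lower past it in cell16_LY than in cell2_LY. Of 6 hypoblast markers, PDGFRA (-2.01) was lower past it in cell2_LY than in LY_DMSO. The part of these markers in the values of VEGFA, PFKFB3, EGLN3, HIF1A and BNIP3 was not tested. Cumulus cell markers summed to 12.1 to 39.2 FPKM in LY_DMSO, 24.3 to 85.3 in cell2_LY and 34.3 to 112 in cell16_LY, highest in replicate 1 of each treated group, and their part was not tested either.

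LY10 and cell2_LY both received LY from the 2-cell stage, and 4 of the genes lay on opposite sides of their own controls in the 2 experiments. PFKFB4 was higher in LY10 (1.51) and lower in cell2_LY (-0.77), and BNIP3 was likewise higher in LY10 (0.52) and lower in cell2_LY (-0.76). EGLN3 was lower in LY10 (-1.12) and higher in cell2_LY (1.49). ANKRD37 went from 31 reads to 0 in the first experiment and from 2 to 31 in the second. In all 4 genes the groups did not overlap in normalized counts in either experiment, although 1 LY_DMSO and 1 cell2_LY blastocyst each had 2 reads of ANKRD37. The control levels differed too: PFKFB4 was at 75.3 to 120 normalized counts in DMSO and at 405 and 408 in LY_DMSO, which are on scales set separately. The difference between the experiments was not tested, since the tables were normalized separately.

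In bESCs the libraries with and without LY overlapped for all 10 genes. Of these, 0 passed the threshold, beside 0.0749% of the 16012 genes tested, 0.0375% upwards and 0.0375% downwards. Groups that did not overlap were found for 14.2% of all genes and 0 of the 10. No gene held after adjustment with limma, and 0.0999% had an unadjusted p under 0.05. The log2 fold changes of the 10 genes lay between -0.70 (EPAS1) and 0.52 (VEGFA). HIF1A had 5397 and 6016 normalized counts in bESC_tifx and 5802 and 5782 in bESC_LY, a log2 fold change of 0.02 with a 95% interval of -0.33 to 0.37. EGLN3 had 1804 and 1674 against 1695 and 1516, with -0.12 and an interval of -0.52 to 0.29. The intervals of ANKRD37 (-4.34 to 4.94) and ADM (-5.16 to 4.99) were wider. All of these intervals come from a fit without the replicate number, so they include the spread between the numbers. The overlap and the lack of calls therefore do not show that LY left the genes unchanged. At the same number, VEGFA and ANKRD37 were higher with LY in both pairs. EPAS1, PFKFB3 and EGLN3 were lower in both pairs, and the other genes moved in opposite directions in the pairs. The labels do not say whether the bESC replicates were separate cultures. The spread behind these p-values is the one between numbers 2 and 3. Between the numbers, the rank correlation over genes was 0.967 in bESC_tifx and 0.965 in bESC_LY. Libraries with and without LY correlated at 0.995 in number 2 and 0.996 in number 3.

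For several of the genes the bESC libraries differed more by replicate number than by LY. ANKRD37 had 310 normalized counts in bESC_tifx replicate 2 and 24.9 in replicate 3, and 398 and 29.7 in bESC_LY. ADM had 729 and 35.5, and 547 and 42.1. The libraries numbered 2 were thus 12.4 and 13.4 times as high for ANKRD37, and 20.5 and 13.0 times for ADM. VEGFA had 1467 and 476 in bESC_tifx and 2392 and 603 in bESC_LY, and EPAS1 had 36.1 and 13.4, and 33.9 and 4.78. These 4 of 10 genes were over 2-fold higher in number 2 in both arms, which was so for 3.95% of all genes, with 4.81% lower to that degree. BNIP3 reached 2.20 times in bESC_tifx and 1.94 in bESC_LY. The other 5 genes had ratios of at most 1.65. Trophectoderm markers moved with the number as well, summing to 296 and 256 FPKM in number 2 and 113 and 98.6 in number 3. Hypoblast markers moved the other way, at 23.7 and 21.96 FPKM in number 2 and 45.3 and 45.9 in number 3, as did the list of cumulus cell markers, at 23.8 and 21.7 against 68.2 and 61.5. The part of these markers in the values of the 10 genes was not tested. Fibroblast and feeder markers stayed between 70.8 and 72.6 FPKM. The labels do not say what the replicate number stands for.

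**Figure D3:**
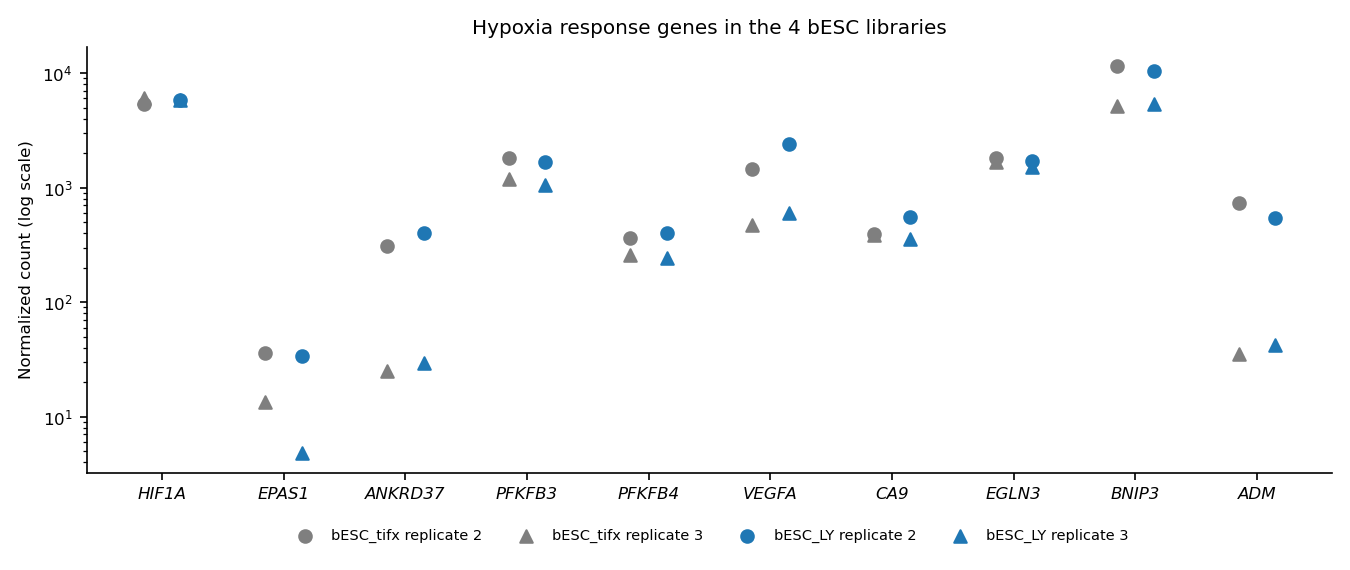
Normalized counts (log scale) of the 10 genes in the 4 bESC libraries, with circles for replicate 2, triangles for replicate 3, grey for bESC_tifx and blue for bESC_LY. ANKRD37 and ADM are over 12 times higher in both circles than in the triangles of the same colour, and the colours overlap for every gene.

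Other genes of the pathway were taken as 3 lists. The first held 14 regulators of HIF (partners, hydroxylases, the VHL complex and coactivators), the second 28 further HIF targets and the third 19 glycolytic targets. Of all genes tested, 6.2% passed the threshold upwards and 8.51% downwards in LY10, 8.71% and 8.34% in cell2_LY, 3.25% and 1.97% in cell16_LY against LY_DMSO, and 5.58% and 5.77% in cell16_LY against cell2_LY. These shares are the background for the counts of the lists. Of the regulators, 0 of 13 tested passed the threshold in LY10, with a median log2 fold change of -0.13, against -0.05 for all genes. In cell2_LY, 2 of 13 were lower, ARNT (-1.43 ± 0.44), the partner of the alpha subunits, and HIF1AN (-1.16 ± 0.30), the asparaginyl hydroxylase that blocks their coactivators. In cell16_LY against LY_DMSO, 0 of 13 passed, with a median of -0.19. Against cell2_LY, HIF1AN was higher (1.16 ± 0.30) and EGLN2, a prolyl hydroxylase, lower (-1.10 ± 0.41).

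Of the further targets, 4 of 21 tested were lower and 0 higher in LY10, with a median of -0.39. They were NDRG1 (-1.72 ± 0.47), RORA (-1.62 ± 0.64), PLOD2 (-1.55 ± 0.59), a collagen lysyl hydroxylase, and MXI1 (-1.28 ± 0.42), a MYC antagonist. In cell2_LY, 3 of 23 were higher and 1 lower, with a median of -0.24 (all genes 0.00). BHLHE40, a transcriptional repressor, was higher at 2.16 ± 0.40, as were HMOX1, the heme oxygenase, at 1.87 ± 0.39 and KDM4B, a histone demethylase, at 1.42 ± 0.50. AK4, an adenylate kinase of mitochondria, was lower at -1.13 ± 0.28. In cell16_LY, 4 of 23 were higher than in LY_DMSO and 0 lower, with a median of 0.61. Among the higher were GBE1, the glycogen branching enzyme (1.72 ± 0.42), BHLHE40 (1.61 ± 0.40) and RORA (2.04 ± 0.85). Against cell2_LY, 8 of 23 were higher, among them GBE1 (1.87 ± 0.42), BNIP3L, the relative of BNIP3 (1.26 ± 0.29), and AK4 (1.05 ± 0.28), and 1 lower, HMOX1 at -1.26 ± 0.39. The median of this contrast was 0.87, against 0.04 for all genes.

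Of the glycolytic targets, 6 of 17 tested were higher past the threshold in LY10 and 1 was lower, and their median was 0.82. GPI (1.24 ± 0.22), PGAM1 (1.15 ± 0.30), HK1 (1.89 ± 0.53) and PKM (1.38 ± 0.40) were among the higher, and TPI1 (-1.05 ± 0.33) was the lower one. In cell2_LY, 2 of 17 were higher, PFKL (1.14 ± 0.34) and TPI1 (1.27 ± 0.51), and 1 lower, ALDOC (-1.28 ± 0.55), with a median of -0.38. In cell16_LY, 6 of 17 were higher than in LY_DMSO and 0 lower, with a median of 0.42. TPI1 had the smallest p, at 3.92 ± 0.51 and a limma adjusted p of 0.126, followed by GAPDH (1.52 ± 0.32), PFKL (1.39 ± 0.34) and ENO1 (1.31 ± 0.34). The 5 genes higher than in cell2_LY included PGK1 (1.59 ± 0.29), TPI1 (2.65 ± 0.51), ENO1 (1.40 ± 0.34) and LDHA (2.28 ± 0.56), with a median of 0.76. In bESCs, 0 of 14, 0 of 27 and 0 of 19 genes of the 3 lists passed, and in no comparison did a gene of the lists hold after adjustment.

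**Figure D4:**
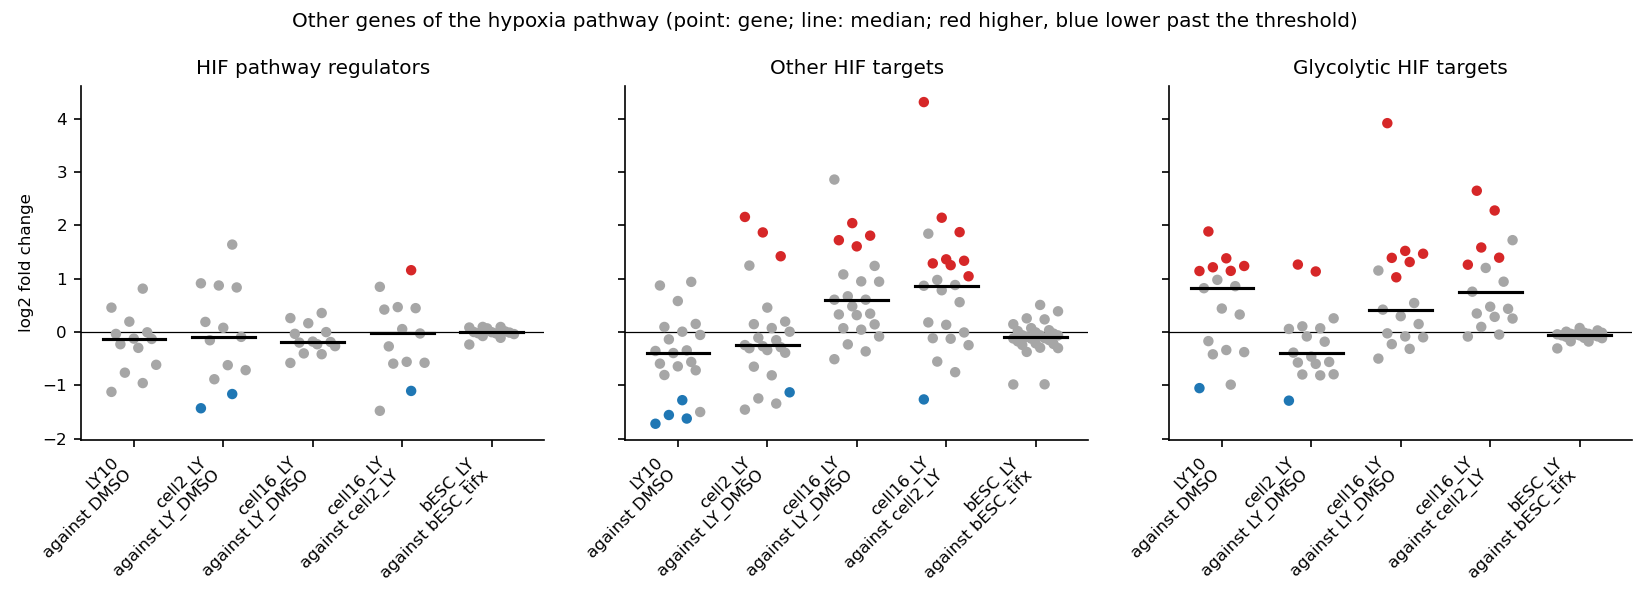
Log2 fold change (vertical axis) of the regulators, further HIF targets and glycolytic targets in the 5 comparisons, with points for genes, black lines for list medians, red for higher and blue for lower past the threshold. The further targets have a median of -0.39 in LY10 and 0.61 in cell16_LY, and the bESC points lie close to 0.

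The pattern of ANKRD37 over the 12 blastocysts was compared with 9326 genes that had a mean of at least 50 normalized counts in both blastocyst tables, on log2 values centred within each table. The nearest were LOC100849069 (Pearson r 0.93), ELOF1 (0.92), SLC49A4 (0.87), ASAH1 (0.86) and SHTN1 (0.85). SHTN1 had 563 to 776 normalized counts in DMSO, 206 to 370 in LY10, 574 and 615 in LY_DMSO, 1226 and 826 in cell2_LY, and 1315 and 1011 in cell16_LY. Among the 10 genes, r with ANKRD37 was at most 0.41 (VEGFA), with 0.38 for PFKFB3, 0.37 for EGLN3, 0.16 for BNIP3 and 0.14 for HIF1A. It was negative for EPAS1 (-0.25), ADM (-0.33), CA9 (-0.39) and PFKFB4 (-0.49). Within the first and the second experiment, r of the nearest genes named was at least 0.78 and 0.88. Those genes were picked for their r over the same 12 blastocysts, so high values within each experiment follow from that choice. Several of the 10 genes differed between the experiments: r was 0.91 and 0.05 for EGLN3, -0.73 and 0.43 for BNIP3, -0.68 and 0.46 for EPAS1, 0.031 and -0.54 for ADM, -0.78 and -0.055 for CA9, and 0.16 and 0.57 for VEGFA. These correlations describe 12 blastocysts that include the treatment differences themselves, and values of ANKRD37 at 0 to 4 reads in several of them carry large counting error.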

How the data were processed

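The 10 genes, the lists and the tests were chosen with earlier results of these data known. The authors trimmed reads with fastp, aligned them (the methods name STAR and HISAT2, the submitters' processing notes HISAT2 2.0.5), counted them with featureCounts 1.5.0-p3 and deposited FPKM per gene and library. The fold changes and p-values of the authors' DESeq2 1.20.0 comparison, which the tables also hold, were not used. FPKM times gene length gave whole reads for 100% of values within 0.02 reads, and with them a library size. In the second blastocyst table that size equalled a median-of-ratios size factor times the geometric mean of the reads on genes, and in the first and bESC tables it was 0.980 to 1.003 and 1.002 to 1.006 times this product. For cell2_LY replicate 1 the library size exceeded its reads on genes 1.23 times.

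Normalized counts are reads per library size, times the geometric mean size of the table. limma 3.58.1 (R 4.3.3, lmFit and eBayes with trend, no covariates) was fitted to log2(normalized count + 1) of genes with a mean of 10 or more, with all 3 groups of the second table together. This scale understates the change of low genes. The study's threshold was used for calls (unadjusted p under 0.05, log2 fold change past 1 or -1), and Benjamini-Hochberg adjustment covered all genes tested. List genes are named if past the threshold, up to 4 per direction by smallest p, and the 5 genes most like ANKRD37 by Pearson r. PPP1R3C is named besides, for its low values. A gene of the further targets is not reported here by name. A count of 0 allows 3 reads, at most 4.09, 3.50 and 3.18 normalized counts in the first, second and bESC tables. Intervals of read ratios (exact, 95%) cover counting error only. The folds given as at least cover it for the group at 0 alone, with the reads of the other group taken as exact. Positions in the first blastocyst table matched RefSeq for 35799 of 36219 genes. No within-group pair of libraries agreed within sampling noise.

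The settings varied were the pseudocount (0.5, 5), the filter (none, or a mean of 50), the scale (log2(FPKM + 1) at a mean of 0.5 or more), the library size (reads on genes), median-of-ratios scaling, quantile normalization, sample weights, voom on the recovered reads, a replicate block, the compared groups alone and the leaving out of each library. In simulated data with 200 genes changed by a log2 fold change of 2, the threshold was passed by 99.5% of these for LY10 (14228 genes), 97% for cell2_LY (14503 genes) and 98.5% for bESC_LY (15957 genes). The changed genes had a mean of at least 50 normalized counts, and all genes were drawn with the same relative spread. These shares therefore do not cover lower genes, such as ANKRD37 and EPAS1 in blastocysts, or genes of wider spread.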

Additional observations from a re-analysis of the deposited data

Results flagged for a closer look

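HIF1A (1.13), BNIP3 (1.71), PFKFB3 (-1.54) and EGLN3 (-1.44) differed in log2 fold change between LY from the 16-cell and LY from the 2-cell stage in the direct test, at the unadjusted threshold and not after adjustment. For 4 genes, every blastocyst with LY from the 2-cell stage lay on one side of its controls in the first experiment and on the other side in the second. These were ANKRD37 (-2.92 in LY10 without the filter on low values, 2.54 in cell2_LY), PFKFB4 (1.51 and -0.77), EGLN3 (-1.12 and 1.49) and BNIP3 (0.52 and -0.76). The difference between the experiments was not tested. In the second experiment, 1 cell2_LY blastocyst had 2 reads of ANKRD37 (1.97 normalized counts), as did 1 control (1.85). No group had the 4 libraries that a test for outlying libraries needs.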

How the results depend on the processing

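The count of the 10 genes past the threshold in LY10 against DMSO was 2, with 3 without a filter on low values (1 higher, 2 lower, ANKRD37 being the added one), and 1 with a mean of at least 50, log2(FPKM + 1), quantile normalization or the replicate block. It was 1 to 2 when a library was left out. For cell2_LY against LY_DMSO it was 3, with 1 under log2(FPKM + 1) and 1 to 3 with a library left out. For cell16_LY against LY_DMSO it was 1, with 0 at a mean of at least 50, which removes ANKRD37 from the test, and 0 to 3 with a library left out. For cell16_LY against cell2_LY it was 4, with 2 under log2(FPKM + 1) and 2 to 4 with a library left out. For bESC_LY it was 0, and 0 to 1 with a library left out (VEGFA without bESC_LY replicate 3). A group left with 1 library is assumed to vary like the others. The 1 call of cell16_LY against LY_DMSO is ANKRD37, which met the filter on low values only through the LY groups, so that count supports nothing. PFKFB4 in LY10, VEGFA in cell2_LY and BNIP3 in cell16_LY against cell2_LY passed the threshold under every alternative run. The call of EGLN3 in cell2_LY was also lost with a mean of at least 50, quantile normalization, sample weights, the replicate block or the compared groups alone. In cell16_LY against cell2_LY it was also lost with no filter, a mean of at least 50, quantile normalization or the replicate block. The call of HIF1A there was lost with reads on genes as library size. The cause of the changes in these counts and calls was not tested.

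Reads on genes as library size moved the median of all genes to 0.24 in cell2_LY against LY_DMSO and to -0.18 in cell16_LY against cell2_LY, and the split of genes past the threshold from 1265 higher and 1211 lower to 1842 and 674, and from 810 and 839 to 421 and 1261. Quantile normalization turned the split in LY10 from 884 higher and 1213 lower to 1074 and 879, and voom weights to 887 and 840. Median-of-ratios scaling gave the main values in the second table. Without DMSO replicate 3, 1348 genes were higher and 2101 lower in LY10, and 1963 held after adjustment. With sample weights 1551 held there. Over the settings run, the limma adjusted p of PFKFB4 in LY10 lay between 0.0350 and 0.248, so whether it held depended on the setting.

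VEGFA in LY10 was -0.013 under log2(FPKM + 1), -0.30 with sample weights and -0.076 with voom weights, and ADM was -0.24 with sample weights. EPAS1 in cell2_LY was -0.018 after quantile normalization. EGLN3 in cell16_LY against LY_DMSO was -0.0010 under log2(FPKM + 1). With reads on genes as library size, EPAS1 and ADM in cell16_LY against cell2_LY were -0.070 and -0.18. Leaving out 1 library at a time turned the sign within these ranges. In LY10 they were -0.37 to 0.020 for HIF1A, -0.45 to 0.29 for VEGFA and -0.41 to 0.60 for ADM. In cell2_LY they were -0.40 to 0.79 for EPAS1, -0.66 to 0.088 for CA9 and -1.71 to 0.39 for ADM. In cell16_LY against LY_DMSO they were -0.049 to 0.99 for HIF1A, -0.12 to 0.78 for EPAS1, -0.053 to 0.76 for PFKFB3, -0.18 to 0.52 for CA9, -0.58 to 0.67 for EGLN3 and -1.68 to 0.41 for ADM. In cell16_LY against cell2_LY they were -0.46 to 0.73 for EPAS1, -0.87 to 0.55 for PFKFB4 and -0.60 to 0.65 for ADM. In bESC_LY they were -0.055 to 0.10 for HIF1A, -2.00 to 0.59 for EPAS1, -1.55 to 2.15 for ANKRD37, -0.49 to 0.18 for PFKFB3, -0.34 to 0.38 for PFKFB4, -0.47 to 1.52 for VEGFA, -0.14 to 0.51 for CA9, -0.62 to 0.52 for BNIP3 and -2.25 to 2.08 for ADM.

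The labels do not say that a replicate number marks a shared batch. Same-numbered libraries correlated in their deviations at -0.117, 0.168 and -0.0997 in the first experiment, 0.121 for cell2_LY and LY_DMSO, -0.232 for cell16_LY and LY_DMSO, -0.133 for cell16_LY and cell2_LY, and 0.789 in the bESCs. With the replicate number as a block, 1, 2, 1, 3 and 0 of the 10 genes passed in the 5 comparisons in the order above. EGLN3 was the call not made under the block in LY10, cell2_LY and cell16_LY against cell2_LY, at the same estimates. In the bESCs the block raised the genes past the threshold from 12 to 146 (69 higher, 77 lower), with 116 after adjustment, and gave VEGFA an adjusted p of 2.7e-05 at a log2 fold change of 0.52. With the cell16_LY numbers crossed, chosen after seeing the data, 1 and 4 of the 10 genes passed against LY_DMSO and cell2_LY.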

Other observations

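The 10 genes differed in how far replicates of 1 group lay apart. The highest library over the lowest, after adding 1 normalized count, was 4.09 for ADM in DMSO and 4.27 in LY_DMSO, larger than for 77.3% and 92.1% of genes in those groups. ANKRD37 had a ratio of 10.99 in cell2_LY and 6.06 in DMSO, larger than for 97.6% and 83.3% of genes. HIF1A in DMSO had 1.15, which was larger than for 3.98% of genes, and 2.05 in LY_DMSO, larger than for 76.7%. In cell16_LY, BNIP3 (2.53) and PFKFB4 (2.67) varied more than 92.6% and 93.4% of genes, BNIP3 being higher in replicate 1 and PFKFB4 in replicate 2.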
